A study of Mus musculus with 4 samples.

Results

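The cytosolic ribosomal proteins are the proteins of the large and small ribosomal subunits, and their genes were followed here in LPS-treated mouse macrophages. Members were the protein-coding genes of the deposited table whose symbol starts with Rpl or Rps and a number, together with Rplp0, Rplp1, Rplp2 and Rpsa. The rule left out processed copies with -ps in the name, the Rps6k kinases and Rps19bp genes. It took 85 of the 34745 gene rows, 52 of the large and 33 of the small subunit. A further 21 rows with -ps and 3 rows annotated as pseudogenes (Rpl37rt, Rps4l and Rpl6l) were not members.

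The 4 sequenced libraries were made from primary macrophages grown out of C57BL/6 mouse bone marrow. The 2 Acly-E14 siRNA libraries came from cells transfected with a small interfering RNA (siRNA) named Acly-E14 and treated with lipopolysaccharide (LPS), a bacterial cell wall component. The 2 control siRNA libraries came from cells given a control siRNA and the same LPS treatment, so no library was without LPS or without transfection. The labels give no age, dose or time, and do not state whether replicate libraries stem from different cultures or mice. The p-values below therefore cover the spread between the sequenced libraries, which could be technical.

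A ribosome holds 1 copy of nearly every ribosomal protein, and their genes are usually expressed together. Their mRNAs share a 5′ terminal oligopyrimidine (TOP) tract, a run of C and T that starts at the first base of the mRNA. Through this tract mTORC1 and the RNA-binding protein Larp1 control their translation, a step that RNA counts do not measure. Some ribosomal proteins also act outside the ribosome, and when assembly fails, free Rpl5 and Rpl11 bind Mdm2 and stabilise p53.

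Ribosomal protein transcripts differed little between the groups. Of 83 tested members, 10 were higher in Acly-E14 siRNA libraries (among them Rps27l, Rps12, Rpl12, Rpl22, Rpl5, Rpsa, Rpl21, Rps26 and Rpl13a), 1 was lower (Rpl29) and 72 were not called, by edgeR's quasi-likelihood test at an adjusted p under 0.05. This is 13.3% of the tested members, against 33.2% of the 13108 genes tested, of which 17.3% were higher and 15.9% lower. The called rises were modest, the largest being 0.725 on the log2 scale (Rps27l). The median log2 fold change was 0.06 over the members and 0.0027 over all genes. The number called higher depended on single libraries and on scaling. It was 4 without Acly-E14 siRNA library 1, 2 without Acly-E14 siRNA library 2, 1 without control library 1 and 3 without control library 2, where 21.4%, 15.6%, 15.9% and 24.0% of all genes were called in either direction. It was 23 with library totals in place of trimmed-mean (TMM) scaling. With limma on log2(FPKM + 1) it was 22, where FPKM is the level per kilobase of gene length. In either direction, 24 of the 83 members were called with library totals, against 32.2% of all genes. With limma 23 were called, against 31.0% of all genes. The gap between members and all genes was thus smaller under these settings than in the main fit. The number called higher was 6 with no filter on low counts, 6 after removal of a trend with gene length and 18 at an adjusted p under 0.1. In either direction these settings called 7, 7 and 19 members, against 17.8%, 37.1% and 43.7% of all genes. Rpl29 was lower in each of these fits.

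The 4 libraries held 21023197 to 21837806 counts each. Pearson correlations of log2 CPM (counts scaled to a common library size) over all genes were 0.991 within the Acly-E14 siRNA pair and 0.990 within the control pair, against 0.958 to 0.971 between groups. Over the members they were 0.997 and 0.996 within groups and 0.993 to 0.994 between. Acly, the target of the siRNA by its name, encodes ATP citrate lyase. It was at 118 and 126 CPM in Acly-E14 siRNA libraries, against 158 and 154 CPM in control libraries (log2 fold change -0.35, SE 0.060, edgeR adjusted p = 0.0086). That call was lost without control library 1. The macrophage label was matched by high levels of Lyz2 (4599 CPM in Acly-E14 siRNA libraries and 4739 CPM in controls, as means) and Cd68 (1172 and 1876 CPM in the same order), while 15 macrophage markers summed to 16564 and 16953 CPM against 18567 and 17108 CPM. Of the 14 tested, 2 were higher and 6 lower. Other markers moved too. Of 15 fibroblast and stroma markers, 14 were higher and 0 lower, and their sum was 3411 and 4239 CPM in Acly-E14 siRNA libraries, against 979 and 1469 CPM in controls. Of 12 markers of dividing cells, 8 were higher and 0 lower, with sums of 345 and 359 CPM against 235 and 257 CPM. Markers of red cells and lymphocytes were rare, with 8 erythrocyte markers at 0 and 3 counts in sum against 81 and 94 (3 of 3 tested lower), and 10 lymphocyte markers at 35 and 42 counts against 32 and 82. Neutrophil markers summed to 139 and 139 CPM against 92.8 and 101.3 CPM, and of the 3 tested, Csf3r and S100a8 were higher and S100a9 lower. In bulk RNA, fewer cells of a type and less RNA per cell cannot be told apart, and the part of these marker shifts in the ribosomal protein values below was not tested.

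As a sum, ribosomal protein transcripts were slightly higher in Acly-E14 siRNA libraries. The members summed to 7993 and 8226 CPM in Acly-E14 siRNA libraries, against 7730 and 7479 CPM in control libraries. Both Acly-E14 siRNA libraries lay above both controls, by a ratio of means of 1.07, and with library totals instead of TMM factors the ratio was 1.14. As a share of all counts the members took 0.820% and 0.855% in Acly-E14 siRNA libraries, against 0.741% and 0.733% in controls. The subunits moved alike. Large-subunit genes summed to 4482 and 4635 CPM against 4358 and 4202 CPM, a ratio of 1.07. Small-subunit genes summed to 3510 and 3591 CPM against 3371 and 3276 CPM, also a ratio of 1.07. With 2 libraries in each group, an exact permutation test of such a sum cannot give a two-sided p below 0.333.

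The clearest single changes were a rise of Rps27l and a fall of Rpl29, each of which held in 14 of the 14 alternatives tried. Rps27l (chr9:66946086-66949516 on mm10, plus strand) encodes a paralog of the small-subunit protein Rps27 and is a known target gene of p53. It was at 25.8 and 30.7 CPM in Acly-E14 siRNA libraries, against 17.2 and 17.02 CPM in control libraries. Both Acly-E14 siRNA libraries were above both controls, and the rise was 1.65-fold (log2 0.72, SE 0.11, edgeR adjusted p = 0.0067). Its log2 value ranged between 0.59 and 0.85 when single libraries were left out. Its partner gene Rps27 encodes the standard protein, and the coding sequences are shown because their distance decides whether reads can be told apart. Both have 252 bases, of which 60 differ, an identity of 76.2%. Capitals mark the differing bases, read from GENCODE M21 transcripts from the first coding base.
Rps27: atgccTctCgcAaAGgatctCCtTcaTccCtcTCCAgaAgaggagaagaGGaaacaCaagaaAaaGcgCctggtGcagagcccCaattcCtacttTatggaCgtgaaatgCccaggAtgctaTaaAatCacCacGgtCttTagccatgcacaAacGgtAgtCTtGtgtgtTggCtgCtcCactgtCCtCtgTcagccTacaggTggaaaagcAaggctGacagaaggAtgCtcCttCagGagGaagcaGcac
Rps27l: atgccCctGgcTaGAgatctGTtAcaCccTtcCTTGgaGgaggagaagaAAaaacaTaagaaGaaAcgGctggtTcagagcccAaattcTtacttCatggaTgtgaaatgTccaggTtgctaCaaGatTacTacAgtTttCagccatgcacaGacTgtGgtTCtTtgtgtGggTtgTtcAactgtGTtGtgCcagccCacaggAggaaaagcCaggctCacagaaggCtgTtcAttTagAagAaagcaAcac
The differences are spread over the whole length. Rps27 itself did not show the rise. Its own row held 26 and 29 counts in Acly-E14 siRNA libraries, against 31 and 40 in controls (log2 -0.44, 95% interval -1.13 to 0.25, edgeR adjusted p = 0.28). Rps27rt, a member on chromosome 9, has 0 differences from the Rps27 coding sequence and held most of the counts, 1609 and 1849 against 1767 and 1768. Its groups overlapped (log2 -0.11, 95% interval -0.31 to 0.10, edgeR adjusted p = 0.36). Summed with Rps27rt, Rps27 had a log2 fold change of -0.11 (edgeR adjusted p = 0.33).

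Rpl29 (chr9:106429454-106431568, plus strand) encodes a protein of the large subunit that has also been described as a heparan sulfate-binding protein. It was at 61.2 and 60.9 CPM in Acly-E14 siRNA libraries, against 94.6 and 94.8 CPM in control libraries. The libraries of each group nearly coincided, and Rpl29 was at 0.645 of the control level (log2 -0.63, SE 0.056, edgeR adjusted p = 0.0016). A near-identical copy, Gm10709, had 116 and 112 counts against 189 and 144 (log2 -0.63, edgeR adjusted p = 0.058). The gene row held 92.1% of the counts of Rpl29 and its copies, and with the copies added the log2 fold change was -0.63.

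**Figure D1:**
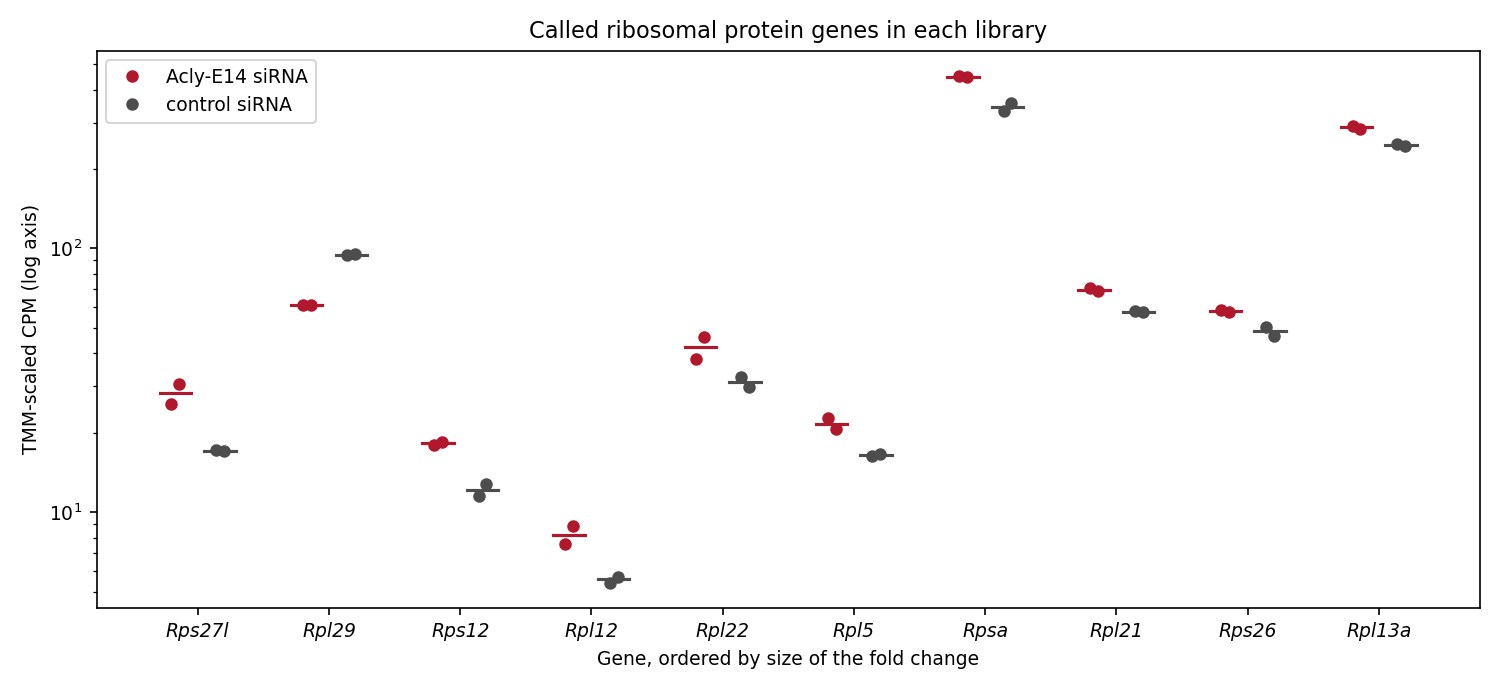
Of the 11 called ribosomal protein genes, 10 are plotted in each library, as TMM-scaled CPM on a log axis; points are libraries, bars are group means, and Acly-E14 siRNA stands left of control siRNA for each gene. In each of the 10 plotted genes the groups did not overlap, with Rpl29 the only one below its controls. The genes were picked by their calls in these same libraries, so this adds no support. Over all genes tested, 35.3% had both Acly-E14 siRNA libraries above both controls and 35.3% both below.

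Among the other small-subunit genes, Rps12 (chr10:23785183-23787275, minus strand), which encodes a protein of the head of the small subunit, was at 17.97 and 18.5 CPM in Acly-E14 siRNA libraries, against 11.5 and 12.8 CPM in controls. It rose 1.5-fold (log2 0.59, SE 0.11, edgeR adjusted p = 0.010), a call lost without Acly-E14 siRNA library 2 (0.055) or control library 1 (0.059). Its copy Rps12-ps3, with a coding sequence 100% identical, had a log2 fold change of 0.10, and for the sum it was 0.39 (edgeR adjusted p = 0.028), the gene row holding 60.7% of the counts. Rps12 shares exon bases with the small RNA genes Snora33, Snord100 and Gm23130. Rpsa, also known as the laminin receptor, had the most counts of the called members, 449.9 and 446 CPM in Acly-E14 siRNA libraries against 330.5 and 357 CPM in controls. It rose 1.304-fold (log2 0.38, SE 0.059, edgeR adjusted p = 0.0064), and the call was lost only without control library 1 (0.0503). Rps26, which lines the mRNA exit channel, was at 58.3 and 57.6 CPM against 50.3 and 46.6 CPM (log2 0.26, edgeR adjusted p = 0.036). The Rps26 groups did not overlap, but leaving out any single library ended the call, as did no filter on low counts (edgeR adjusted p = 0.0725).

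In the large subunit, Rpl12 forms the base of the stalk that recruits translation factors. Its own row was low, with 7.59 and 8.86 CPM in Acly-E14 siRNA libraries against 5.41 and 5.70 CPM in controls (log2 0.56, SE 0.15, edgeR adjusted p = 0.036). The groups did not overlap, but leaving out any single library ended the call (adjusted p between 0.065 and 0.20), as did no filter on low counts (0.0529) and removal of the length trend (0.0531). The other stalk genes had smaller values and were not called. Rplp0 was at 556 and 589.9 CPM against 515 and 511 CPM (log2 0.16, edgeR adjusted p = 0.073). Rplp1 had a log2 fold change of 0.15 and Rplp2 of 0.20, with edgeR adjusted p of 0.13 and 0.096. In all 4 stalk genes the Acly-E14 siRNA libraries were above both controls. Of all 83 tested members, 34 had both Acly-E14 siRNA libraries above both controls and 8 had both below, or 41% and 9.64%. Over all genes these shares were 35.3% and 35.3%.

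Rpl5 and Rpl11 bind 5S rRNA together and form the particle that restrains Mdm2. Rpl5 was at 22.7 and 20.6 CPM in Acly-E14 siRNA libraries, against 16.4 and 16.6 CPM in controls (log2 0.39, SE 0.097, edgeR adjusted p = 0.027). The groups were apart, but leaving out any single library ended the call, as did removal of the length trend (edgeR adjusted p = 0.0818). Rpl5 shares 953 exon bases with Fam69a on the opposite strand. Rpl11 had 53 and 56 counts against 39 and 59 (log2 0.08, 95% interval -0.57 to 0.74, edgeR adjusted p = 0.84). Summed with its near-identical copies, which held most of the counts, Rpl11 had a log2 fold change of -0.07 (SE 0.11, edgeR adjusted p = 0.68).

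In a chosen list of 10 members with described roles outside the ribosome, Rpsa, Rpl13a and Rpl22 were higher and 0 were lower. The list is not complete. It leaves out Rpl29, which was lower, Rpl5, which was higher, and Rpl11, which was not called, although such roles are named for them above. The median log2 fold change of the 10 was 0.19. Over all genes tested, 17.3% were higher and 15.9% lower. Rpl13a, which in human monocytes joins a complex that silences inflammatory mRNAs, was at 291 and 284 CPM in Acly-E14 siRNA libraries, against 249 and 245 CPM in controls (log2 0.22, edgeR adjusted p = 0.022). Rpl22, which is needed for T cell development in mice, was at 38.1 and 46.1 CPM against 32.5 and 29.7 CPM (log2 0.44, SE 0.11, edgeR adjusted p = 0.032). Both pairs of groups were apart, but leaving out single libraries took the Rpl13a adjusted p to between 0.072 and 0.11, and that of Rpl22 to between 0.024 and 0.14. Both calls were also lost when the length trend was removed (edgeR adjusted p = 0.0692 for Rpl13a and 0.0704 for Rpl22). That of Rpl22 was lost with no filter on low counts as well (edgeR adjusted p = 0.0735). Rpl10 (log2 0.28, edgeR adjusted p = 0.0503) and Rps14 (log2 0.16, edgeR adjusted p = 0.056) were close to the threshold. Rps3, a subunit partner of NF-kB, was at 278 and 284 CPM against 297 and 272 CPM, and its groups overlapped (log2 -0.02, 95% interval -0.17 to 0.14). Rps6, the substrate of the S6 kinases, had 59 and 47 counts against 65 and 45 (log2 -0.13, 95% interval -0.87 to 0.60). Rps27a, made as a fusion with ubiquitin, Rpl38, known for its part in the translation of Hox mRNAs in mouse embryos, and Rpl23, which binds Mdm2, had log2 fold changes of 0.23, 0.02 and 0.12 and were not called.

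Paralog pairs are genes for 2 versions of 1 ribosomal protein. Of 14 tested genes in the list of pairs, Rps27l and Rpl22 were higher and 0 were lower. The shares over all genes tested were 17.3% higher and 15.9% lower. The list includes the pseudogene Rps4l, which is no member. Rpl22l1, the paralog whose level Rpl22 represses in mouse cells, had 129 and 156 counts in Acly-E14 siRNA libraries against 144 and 140 in controls. Its groups overlapped (log2 -0.07, 95% interval -0.47 to 0.33, edgeR adjusted p = 0.76), and the coding sequences of Rpl22 and Rpl22l1 were 74.6% identical where they aligned. Rpl7l1, which works in ribosome assembly, had a narrow interval around no difference (log2 -0.03, 95% interval -0.17 to 0.12), while Rpl7 had a log2 fold change of 0.13 (edgeR adjusted p = 0.13). Rpl36al and Rpl36a had log2 fold changes of 0.04 and 0.29, Rpl39l and Rpl39 of -0.23 and 0.06, Rpl3 of 0.18 and Rps4x of 0.11, with none of them called. The paralogs known from testis and muscle were nearly silent. Rpl10l had 0 counts in each library, and Rpl3l had 1 and 0 counts against 2 and 0, so neither was tested.

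**Figure D2:**
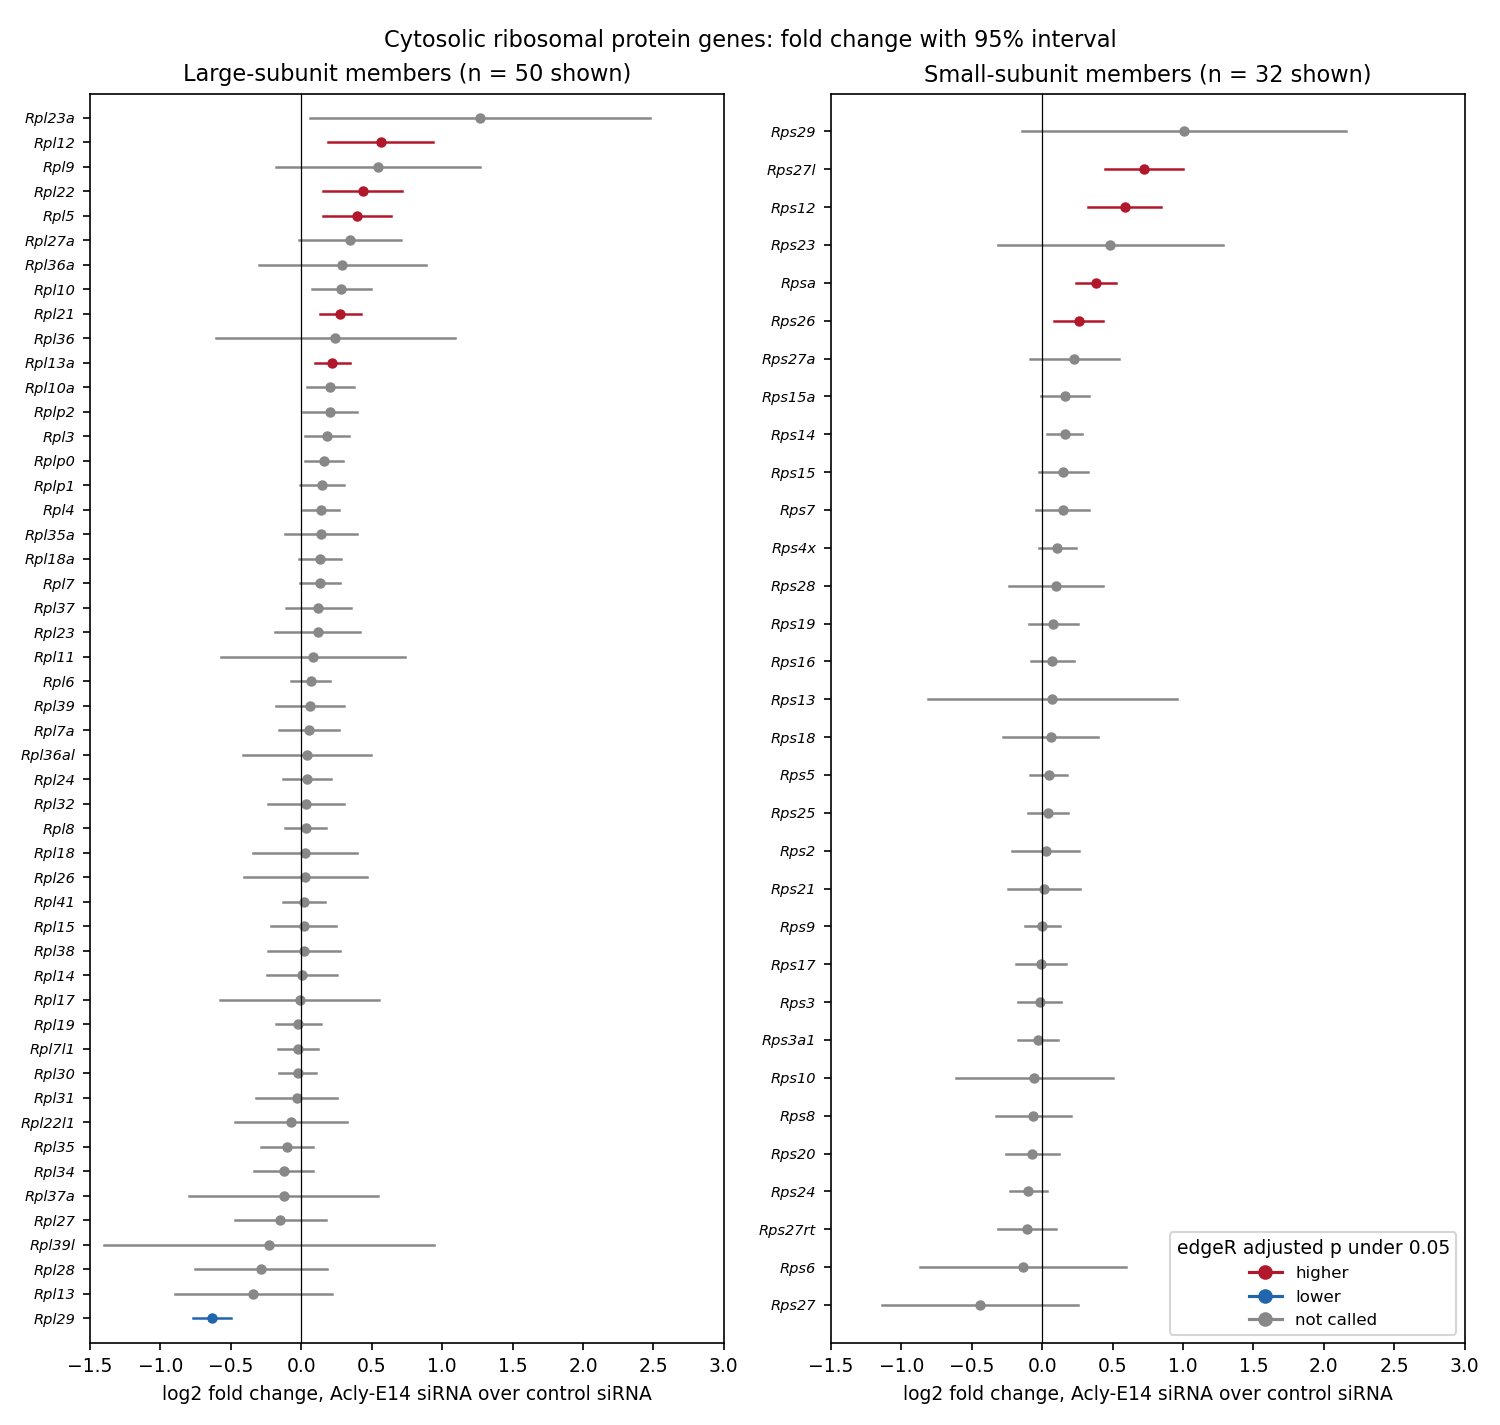
Log2 fold changes (Acly-E14 siRNA over control siRNA) of 82 of the 83 tested ribosomal protein genes with 95% intervals, large subunit on the left and small subunit on the right, sorted by value. Red marks the 9 plotted genes called higher and blue Rpl29, and the widest intervals belong to rows with few counts such as Rpl23a, Rps29 and Rpl39l.

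Many members had intervals close to no difference. The 95% interval of the fold change lay within 1.25-fold of no difference for 35 of the 83 members (42.2%), against 14.4% of all genes tested. It lay within 1.5-fold for 61 members (73.5%), against 44.3% of all genes. The width of an interval depends on depth, and these shares were not matched for it. A mean of at least 1000 counts was reached by 43 of the 83 members, against 3505 of the 13108 genes tested. Among members with a mean of at least 1000 counts, 6 of 43 were called (14%), against 50.7% of 3505 genes of that depth. Rps9, a protein of the small-subunit body, had the smallest difference among the well-counted members, with a log2 fold change of 0.0020 and an interval from -0.12 to 0.13. By position in the ribosome, 0 of 8 genes of the exit tunnel and its rim were called, with a median of 0.0083, and 1 of 14 genes of the small-subunit head, Rps12. Of 19 genes whose loss-of-function variants cause Diamond-Blackfan anaemia in humans, 2 were higher (Rpl5 and Rps26) and 0 lower. In the large subunit 5 of 50 tested genes were higher and 1 lower, and in the small subunit 5 of 33 were higher and 0 lower. For comparison with each of these groups, 17.3% of all genes tested were higher and 15.9% lower. Directions leaned to positive values, with 59 of 83 members above 0 (71.1%) against 50.2% of all genes. Removal of a trend with gene length moved the median over all genes from 0.0027 to -0.10, and that over the members from 0.0625 to -0.015. The sign of the family median thus turned with a shift of the whole table, and it stayed above that of all genes. Calls lost under this correction carry the same shift. Before it, medians over all genes ran from -0.053 to 0.013 across classes of gene length. The part of gene length itself was not tested.

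Per length, the highest levels were those of Rplp1 and Rpl8, at 411 and 387 FPKM as means of the 4 libraries, followed by Rpl4 at 343 FPKM. Rpl8 lies near the site of peptide bond formation and was not called (log2 0.03, 95% interval -0.11 to 0.18). Rpl4, whose extension lines the exit tunnel, was at 509 and 514 CPM in Acly-E14 siRNA libraries against 473 and 457 CPM in controls (log2 0.14, edgeR adjusted p = 0.086). The lowest tested levels were those of Rps13 (0.138 FPKM), Rpl9 (0.151), Rpl39l (0.330) and Rpl23a (0.472). These orders rest on the authors' gene lengths. The lengths implied by the FPKM values ran from 370 to 11869 bases (median 2470.5) over the members, while their main mRNAs had 345 to 3706 bases (median 761), and for 53 members the length exceeded the mRNA by more than 2 times.

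Low rows such as Rpl23a, Rpl9 and Rpl12 had near-identical copies elsewhere in the genome. Ribosomal protein genes have left many processed copies, made from reverse-transcribed mRNA, and a short read from such a stretch can be placed at either locus. Of 85 members, 35 had at least 1 copy in the table with at least 95% identity over 80% or more of the coding sequence, 50 copies in all. The annotation lists 574 such copies, for 78 members, and those without a row in the table were not analysed here. Copies were taken by sequence alone, so not all are processed copies elsewhere in the genome. Gm45713 and Gm28037 share 621 and 484 exon bases with Rpl13a and Rpl24 on the same strand. Some are annotated as protein-coding, such as Wdr89 for Rplp2. The whole count of each copy's row entered the sums. Low rows such as Rps13, Rps6 and Rpl17 have 5, 11 and 22 annotated copies, with 0 of them in the table. The shares on own rows below therefore cover tabulated copies alone. The treatment of reads that map to several places is not given in the sources used here. Stretches of the coding sequence of Rpl23a (bases 96 to 136) and of its copy on chromosome 14 are shown because 1 base, in capitals, is the only difference over the coding sequence.
Rpl23a: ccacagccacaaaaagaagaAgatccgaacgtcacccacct
Rpl23a-ps3: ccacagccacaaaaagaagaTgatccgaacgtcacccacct
The Rpl23a row had 15 and 26 counts in Acly-E14 siRNA libraries and 10 and 6 in controls, while the Rpl23a-ps3 row had 2156 and 2314 against 1986 and 2021. The gene row thus held 0.668% of the counts of the pair. Its log2 fold change of 1.27 (95% interval 0.06 to 2.47, edgeR adjusted p = 0.098) was the highest of the family, but that of the summed pair was 0.09 (edgeR adjusted p = 0.33). Rps29, next in order, rested on 19 and 15 counts against 5 and 11 (log2 1.004, edgeR adjusted p = 0.15).

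For 6 members, fewer than 10% of the counts of the gene and its tabulated copies were on the gene's own row. Besides Rpl23a these were Rps27 (1.77%), Rpl9 (2.24%), Rpl12 (3.15%), Rpl11 (4.99%) and Rpl5 (5.75%). The coding sequences of Rpl12 and Rpl5 are 100% identical to those of Gm10275 and Gm15500, from the first bases on.
Rpl12: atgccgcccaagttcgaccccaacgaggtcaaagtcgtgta
Gm10275: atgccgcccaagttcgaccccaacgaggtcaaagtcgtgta
Rpl5: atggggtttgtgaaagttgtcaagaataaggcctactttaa
Gm15500: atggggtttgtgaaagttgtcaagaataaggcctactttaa
These 41 bases are the start of each coding sequence and hold no base by which a read could be assigned. Gm10275 had 5006 and 5195 counts in Acly-E14 siRNA libraries against 3815 and 4142 in controls, and Gm15500 had 7259 and 7665 against 5842 and 6006. Both copies were higher (log2 0.28 and 0.26, edgeR adjusted p = 0.011 and 0.018). They were the only 2 called among 29 tested copies, against 33.2% of all genes tested. Summed with its copy, Rpl12 had a log2 fold change of 0.29 (edgeR adjusted p = 0.011) and Rpl5 of 0.27 (edgeR adjusted p = 0.015), smaller than on the gene rows and still called. Rpl21 was higher on its own row, at 70.6 and 68.7 CPM against 57.7 and 57.2 CPM (log2 0.28, edgeR adjusted p = 0.018). That call ended when any single library was left out (adjusted p between 0.071 and 0.091) and when the length trend was removed (0.135). The Rpl21 copy BC004004 is annotated as a protein-coding gene (chr17:29268788-29314065) and holds a stretch 98.5% identical to the Rpl21 coding sequence. Its counts are those of the whole gene row and may include reads from outside that stretch. BC004004 had a log2 fold change of -0.21, and for the sum of the 2 rows it was 0.06 (edgeR adjusted p = 0.45). With copies added, 9 of 82 gene families were higher and 1 lower, and 10 of the 11 called members kept their call, Rpl21 being the exception. In that fit 33.2% of 13078 genes were called in either direction.

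**Figure D3:**
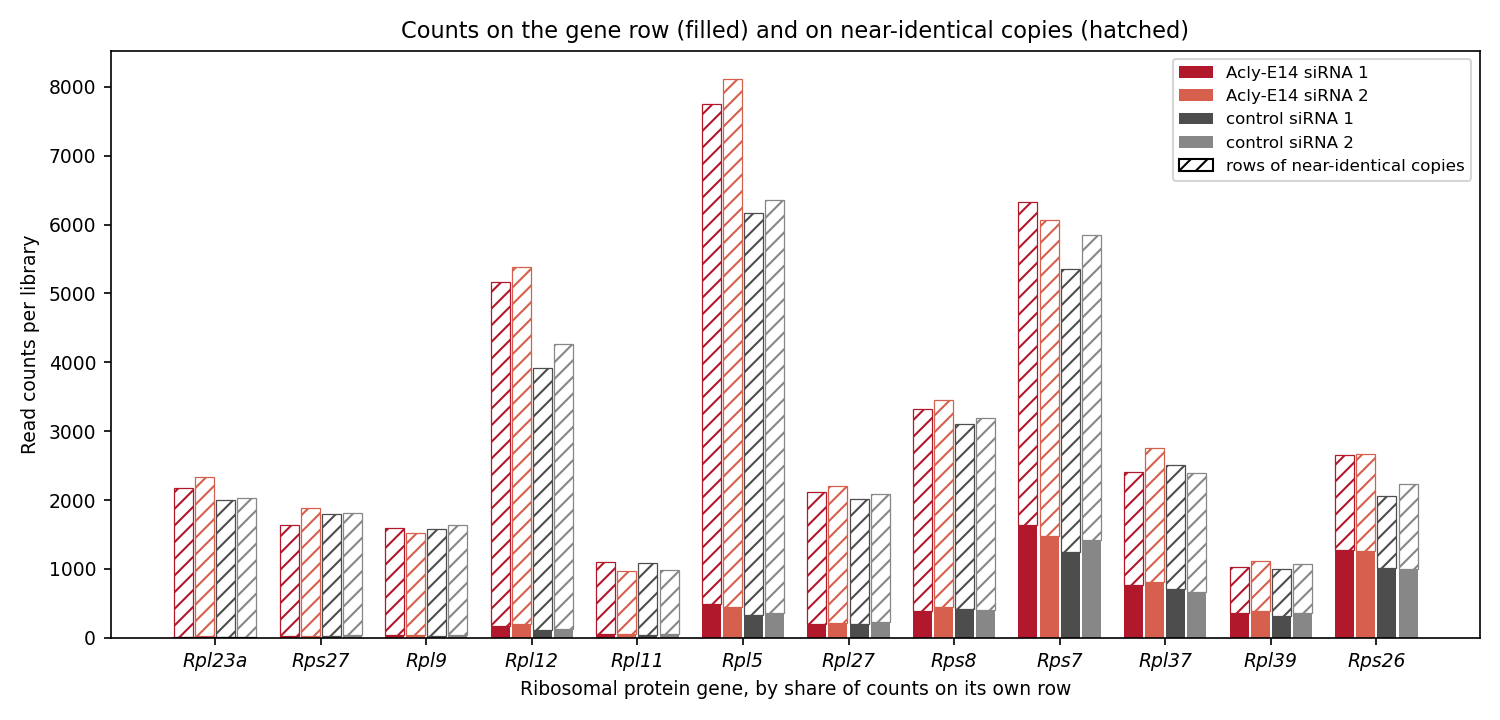
Read counts per library for the 12 ribosomal protein genes with less than 50% of their counts on the gene's own row (filled part of the bar), with counts on near-identical copies hatched above; for Rps27 the copy is Rps27rt, itself a member. For Rpl5 and Rpl12 nearly all counts lie on copies, and the full bars of the Acly-E14 siRNA libraries, to the left, are above those of the controls.

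The start sites were read from RefSeq promoters (build GRCm38.p6) to see which members carry a TOP tract, searched as a C followed by at least 5 bases that are each C or T, on the gene's strand, beginning within 5 bases of the annotated start. It was found in 27 of 65 members with a window (41.5%), against 3229 of 27025 genes (11.9%). Windows of called members are shown, with 10 bases before and 20 from the start on, and the tract in capitals. Rps27l (the first of 2 annotated starts), Rps12 and Rpl12 had the largest changes among called members with a window, which Rpl29 does not have here, and Rpl13a and Rps26 were added because a tract was found there.
Rps27l (chr9:66946076-66946105, plus strand): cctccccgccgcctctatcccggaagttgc
Rps12 (chr10:23787190-23787219, minus strand): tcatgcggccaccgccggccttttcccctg
Rpl12 (chr2:32961702-32961731, plus strand): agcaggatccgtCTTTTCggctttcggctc
Rpl13a (chr7:45128726-45128755, minus strand): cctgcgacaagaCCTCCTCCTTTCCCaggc
Rps26 (chr10:128626487-128626516, minus strand): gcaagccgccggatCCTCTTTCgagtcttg
Rpl12, Rpl13a and Rps26 have the tract in this window, and Rps27l and Rps12 have none that meets the definition there. The tract was found in 3 of 8 members called higher with a window (37.5%) and in 24 of 55 not called (43.6%). A match describes the letters of the annotated start, which need not be the start used in these cells.

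Other genes of the translation apparatus were compared through lists. The shares of all genes tested to set beside each list below were 17.3% higher and 15.9% lower. Of 19 further genes with TOP mRNAs, 8 were higher and 0 lower. Their median was 0.18 on the log2 scale, against 0.06 over the members. This list includes Fau and Rack1, which encode ribosomal proteins outside the naming rule and were not called (log2 -0.01 and -0.02). Hnrnpa1, an RNA-binding protein, was at 52.7 and 52.6 CPM in Acly-E14 siRNA libraries, against 34.8 and 34.3 CPM in controls (log2 0.61, edgeR adjusted p = 0.0026). The nucleolar chaperone Npm1 was at 300.4 and 318 CPM against 233 and 232 CPM (log2 0.41, edgeR adjusted p = 0.0042), and the histone chaperone Nap1l1 at 36.9 and 40.9 CPM against 19.3 and 24.2 CPM (log2 0.84, edgeR adjusted p = 0.0064). In these 3 genes the groups were well apart. The most abundant TOP mRNA of the list, Eef1a1, had 3841 and 3789 CPM against 3684 and 3756 CPM (log2 0.04, edgeR adjusted p = 0.66). In the same libraries the summed fibroblast markers were 3411 and 4239 CPM against 979 and 1469 CPM, and their part in the result was not tested.

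Of 10 elongation and termination genes, 4 were higher and 1 lower. Eef1b2, an exchange factor of elongation, had a log2 fold change of 0.29 (edgeR adjusted p = 0.022), the recycling factor Abce1 of 0.28 (0.016) and the release factor Etf1 of -0.21 (0.036). Etf1 lost its call in each fit that left out a library (adjusted p between 0.061 and 0.17), with no filter, with library totals and with limma. Abce1 and Eef1b2 lost theirs in 3 of those 4 fits, with adjusted p up to 0.10 and 0.12, and when the length trend was removed. Initiation factors split, with 7 of 38 higher and 6 lower (median 0.05). Eif3k and Eif3h, subunits of the scaffold that binds the small subunit, had log2 fold changes of 0.42 (edgeR adjusted p = 0.0054) and 0.30 (0.0093), and the cap complex scaffold Eif4g3 of -0.39 (0.0037). The Eif3h call was lost without Acly-E14 siRNA library 2 or control library 1 (adjusted p up to 0.062).

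Ribosome assembly genes had calls in both directions. Of 89 tested genes of pre-rRNA processing and assembly, 24 were higher, 8 lower and 57 not called (median 0.08). Over all genes tested, 17.3% were higher and 15.9% lower. Calls in this list thus leaned to higher, while those of all genes were nearly even. The small-subunit assembly factor Tsr1 was at 33.5 and 35.9 CPM in Acly-E14 siRNA libraries, against 22.3 and 22.2 CPM in controls (log2 0.64, edgeR adjusted p = 0.0040). Utp3 was at 59.0 and 54.8 CPM against 86.7 and 82.8 CPM (log2 -0.58, edgeR adjusted p = 0.0030). The methyltransferase Fbl, chosen after its values were seen, had a log2 fold change of 0.61 (edgeR adjusted p = 0.0059), and nucleolin (Ncl), also chosen then, of -0.04 (0.56). Of 20 genes of RNA polymerase I and its factors, which make the rRNA precursor, 1 was higher (Polr1b, log2 0.78, edgeR adjusted p = 0.010) and 3 were lower. Those were Rrn3 (log2 -0.37, 0.017), Ttf1 (-0.37, 0.041) and Taf1b, which was at the threshold. Taf1b and Ttf1 lost their calls in each fit that left out a library (adjusted p between 0.081 and 0.19 for Taf1b, and between 0.059 and 0.18 for Ttf1). Rrn3 lost its call in 3 of those 4 fits (up to 0.10), and Polr1b without Acly-E14 siRNA library 1 (0.054). Among 13 chaperones and importers of ribosomal proteins, 3 were higher and 1 lower. Pdcd2, the chaperone of Rps2, was at 11.9 and 12.8 CPM against 23.2 and 22.6 CPM (log2 -0.89, edgeR adjusted p = 0.0025), and the importin Kpnb1 at 203 and 222 CPM against 147 and 154 CPM (log2 0.49, 0.0041). Rps2 itself was not called (log2 0.02, 95% interval -0.22 to 0.26). Markers of dividing cells, 8 of 12 of them higher, moved in the same libraries, and their part in these lists was not tested.

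**Figure D4:**
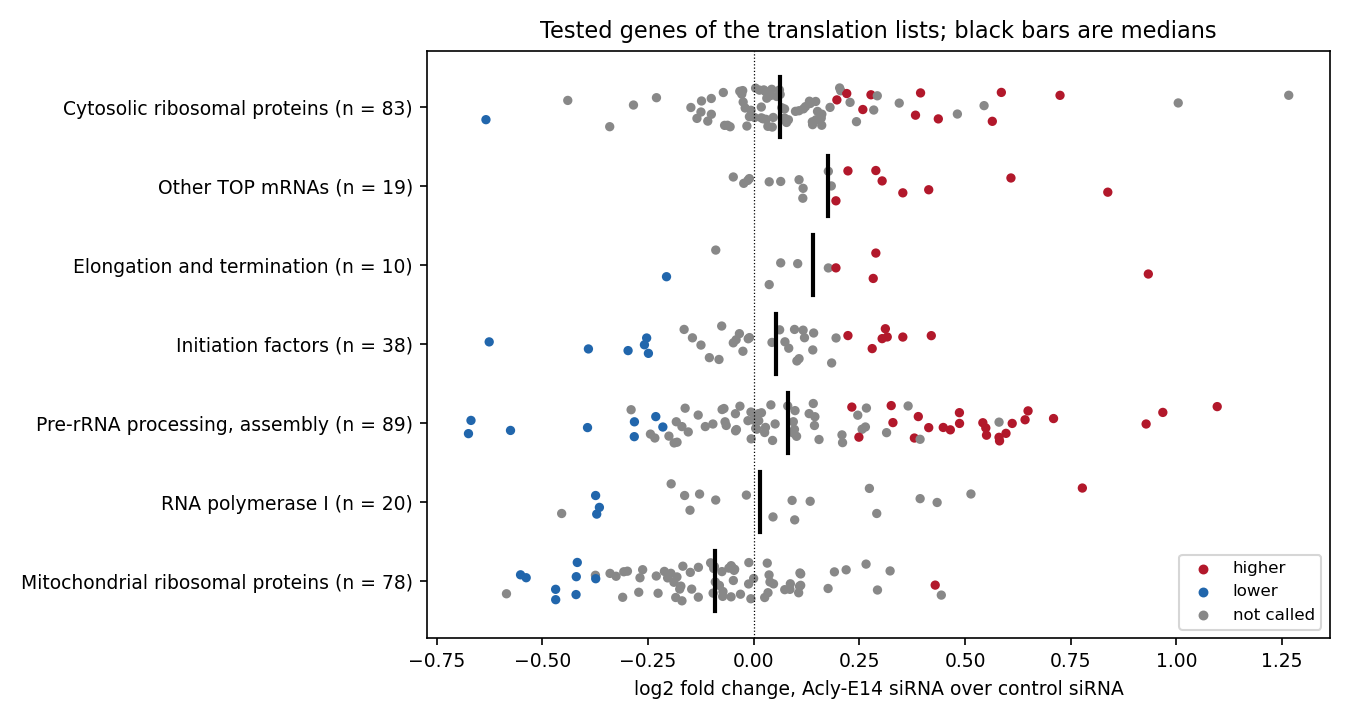
Log2 fold changes (Acly-E14 siRNA over control siRNA) of the tested genes of 7 lists, 1 point per gene, coloured by call at an edgeR adjusted p under 0.05, with list medians as black bars. Cytosolic ribosomal proteins cluster near their median of 0.06, the further TOP mRNAs have a median of 0.18 with 0 lower, and mitochondrial ribosomal proteins have a median of -0.09.

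Regulators of ribosomal protein synthesis moved in both directions. The transcription factor gene Myc, an activator of ribosome genes, was at 22.7 and 27.6 CPM in Acly-E14 siRNA libraries, against 11.4 and 12.9 CPM in controls (log2 1.05, edgeR adjusted p = 0.0036). Mxd1, which competes with Myc for Max, was at 147 and 143 CPM against 253 and 264 CPM (log2 -0.84, edgeR adjusted p = 0.00084), and Mycl at 6.81 and 6.76 CPM against 14.6 and 15.0 CPM (log2 -1.13, 0.0021). The groups of these 3 genes were far apart, while of 11 tested genes of the network 4 were higher and 4 lower. Of all genes tested, 33.2% were called in either direction. In the list of mTORC1 and TOP mRNA control, 2 of 20 were higher, 3 lower and 15 not called (median -0.02). Ddit4, an inhibitor of mTORC1, was at 17.7 and 20.5 CPM against 6.65 and 7.15 CPM (log2 1.47, edgeR adjusted p = 0.0016), and Akt1s1, another, at 24.6 and 32.6 CPM against 15.3 and 12.2 CPM (log2 1.05, 0.0083). Rheb, the GTPase that activates mTORC1, was lower (log2 -0.35, 0.010), and so were Sesn2 and Pdpk1. The Pdpk1 call was lost in each fit that left out a library (adjusted p between 0.062 and 0.13), that of Sesn2 in 3 of the 4 (up to 0.12) and that of Rheb in 2 (up to 0.0605). Larp1 and Mtor, chosen after their values were seen, were not called (log2 0.09 and -0.11).

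Rps27l was described beside other p53 targets. Of 12 genes of the p53 list other than Rps27l, 4 were higher, 2 lower and 6 not called, against 33.2% of all genes called. Zmat3 was at 24.4 and 24.6 CPM in Acly-E14 siRNA libraries, against 13.4 and 15.2 CPM in controls (log2 0.78, edgeR adjusted p = 0.0041), and Phlda3 at 13.5 and 14.1 CPM against 7.70 and 8.09 CPM (log2 0.81, 0.0049). Trp53, the p53 gene, and Eda2r were also higher (log2 0.29 and 0.70, edgeR adjusted p = 0.023 and 0.030). Mdm2, a p53 target and its ubiquitin ligase, was at 279 and 249 CPM against 330.5 and 330.2 CPM (log2 -0.32, edgeR adjusted p = 0.017), and Sesn2 was lower as well (log2 -0.27). The calls of Trp53, Eda2r and Mdm2 were each lost in 3 of the 4 fits that left out a library, with adjusted p up to 0.11, 0.12 and 0.086. Cdkn1a, chosen after its values were seen as the best known target, was not called (log2 -0.12, edgeR adjusted p = 0.18). The median log2 fold change was -0.01 over 13 tested genes of ribosome rescue and quality control. Of all genes tested, 33.2% were called in either direction, 17.3% higher and 15.9% lower. In this list 0 genes were lower and 4 were higher. They included Map3k20, which encodes the kinase ZAK that senses stalled and collided ribosomes (log2 0.47, edgeR adjusted p = 0.011), and Zfp598, which marks collided ribosomes (log2 0.35, 0.015). Map3k20 lost its call in 2 and Zfp598 in 3 of the 4 fits that left out a library (up to 0.057 and 0.083).

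Mitochondrial ribosomal proteins, made in the cytosol for a separate ribosome, had few calls. Of 78 tested genes, 1 was higher (Mrps18b, log2 0.43, edgeR adjusted p = 0.045), 8 were lower and 69 were not called, against 17.3% higher and 15.9% lower over all genes. The median was -0.09. Mrpl39 was at 37.4 and 36.2 CPM in Acly-E14 siRNA libraries, against 51.0 and 50.8 CPM in controls (log2 -0.47, edgeR adjusted p = 0.0054). Mrpl3 (log2 -0.47, 0.012) and Mrps18c (log2 -0.42, 0.019) were lower too. Leaving out any single library ended the calls of Mrps18b (adjusted p between 0.069 and 0.17) and Mrps18c (0.055 to 0.085), and 2 of the 4 such fits ended that of Mrpl3 (up to 0.057). The difference between the cytosolic and the mitochondrial list was not tested, nor was the part of the shifted fibroblast and dividing-cell markers in the regulator, p53 and mitochondrial lists.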

How the data were processed

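Per the labels' protocols, RNA libraries were made with a stranded total RNA kit and a kit with mRNA capture beads, without saying which was used for enrichment. HISAT2, StringTie 1.3.0, edgeR and build mm10 are named in the submitters' processing notes. For the counting program, its handling of strand and of multi-mapping reads, and the annotation, no statement was found in the labels or file headers. The authors deposited whole-number read counts per gene and library, and FPKM values, which equalled those computed from the counts and 1 length per gene (49103 of 49103 values, relative tolerance 0.001). The FPKM column whose name has no replicate number was left out (1 column).

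Symbols matched 34267 of 34745 gene IDs. Biotypes, coordinates (mm10) and transcripts are those of GENCODE M21. Genes were kept with filterByExpr (minimum count 10), scaled by TMM and tested with edgeR 4.0.16 (quasi-likelihood F test, no covariate) in R 4.3.3, and p-values were adjusted by Benjamini-Hochberg over the 13108 genes tested. CPM and FPKM in the text were computed from the counts with TMM factors, FPKM with the lengths implied by the deposited FPKM. SE and 95% intervals come from the F statistic. Copies were found with blastn 2.17.0. The script was tested on simulated data. Alternatives were a replicate block, leaving out each library, RLE scaling, DESeq2 1.42.0, no filter, library totals, TMM factors without the members, limma 3.58.1 on log2(FPKM + 1), an adjusted p under 0.1, a loess correction for gene length, sums with -ps rows and, added after seeing the data, sums with near-identical copies.

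Members, lists and the rule for named genes were chosen with earlier results of these data known. Lists are described by counts and medians, with no test. Named were the called members, the paralog, stalk, 5S and extra-ribosomal lists, the 4 highest and 4 lowest members by FPKM, Acly, and the 3 called genes of smallest p in each further list. A few genes taken by this rule are not reported. Of 2 members not tested, values are counts.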

Additional observations from a re-analysis of the deposited data

How the results depend on the processing

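Of the 11 called members, Rps27l and Rpl29 kept their call in 14 of 14 alternatives (the looser threshold not counted). Leaving out single libraries gave 1 to 4 ribosomal protein members called higher, 1045 to 1815 for genes called higher and 982 to 1400 for genes called lower. Members called higher numbered 6 with no low-count filter, 23 with library totals, 22 with limma on log2(FPKM + 1), 18 at an adjusted p under 0.1 and 6 with the length trend removed. With limma, genes called lower numbered 1389. The member median was 0.154 with library totals, 0.135 with limma and -0.015 with the length trend removed, while the median over all genes was 0.094, 0.051 and -0.10. With library totals the ratio of summed CPM was 1.137 for all members, 1.135 for the large and 1.139 for the small subunit. The causes were not tested. The replicate numbers share only a number (correlation of deviations 0.14 for each of 2 pairs). A replicate block gave 15 members higher and 1 lower, adding Rpl10a, Rpl3, Rpl4, Rplp0 and Rps14, and 4896 genes in all (37.4%). DESeq2 called 14 members higher and 1 lower, and 35.2% of all genes. No called value changed sign in the alternatives run. The 16 tested members with a mean under 100 counts had wide intervals, and 0 of them were called.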
